A study of Homo sapiens with 18 samples.

Results

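The lapatinib-resistant derivative of the breast cancer line SKBR3 was compared with its parental line while both were kept in 1 µM lapatinib, the higher of the 2 doses in the series. The comparison rests on 6 of 18 arrays, chosen by their labels: 3 of the parental line in 1 µM lapatinib and 3 of the resistant line in 1 µM lapatinib. The other 12 arrays hold the same 2 lines under basal conditions and in 0.1 µM lapatinib, 3 arrays per group. Each array was an Illumina expression beadchip hybridised with biotin-labelled cRNA made from total RNA. SKBR3 is an established human line of ERBB2-amplified breast adenocarcinoma. The resistant cells are a single derived line, and how it was selected, how long the drug was given and whether the 3 samples of a group came from separate cultures are not in the labels. The p-values thus reflect the scatter of these arrays alone, possibly only its technical part, and the line itself has no replicate.

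Lapatinib blocks the kinase domains of EGFR and ERBB2. In cells with amplified ERBB2 these receptors feed the MAPK cascade, which drives immediate early genes and feedback inhibitors such as the Sprouty and SPRED proteins, and the PI3K-AKT pathway, which holds FOXO transcription factors out of the nucleus. Blocking the receptors slows the cell cycle in sensitive cells, and lines that grow in the drug differ from their parents in ways that such a comparison under full dose can list.

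Signals were corrected for background, quantile-normalised between arrays and put on the log2 scale, and 12547 genes were tested with limma and Benjamini-Hochberg adjustment at an adjusted p threshold of 0.05. A difference is given as resistant minus parental in log2 units ± SE, with 3 arrays against 3, and a fold is the higher over the lower mean of the corrected signals, whose offset makes folds of dim genes too small. At 1 µM the mean raw signal was 489, 493 and 534 on the parental arrays and 449, 433 and 434 on the resistant arrays. The resistant arrays were thus dimmer without overlap, with a difference of -66.6 units (exact permutation test, two-sided p = 0.1, the smallest that 3 against 3 allows). Its part in the results for single genes was not tested. Between 37.3% and 39.7% of probes lay above background on each of the 6 arrays. Arrays of the same line correlated at r = 0.994 to 0.995 across genes and arrays of different lines at r = 0.981 to 0.982, as a description over genes that are not independent.

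The label of both lines as SKBR3 was set against 14 genes that mark this cell type. Of these, 13 were tested and all 13 lay above background on all 6 arrays. ERBB2 itself had log2 signals of 15.35, 15.44 and 15.34 in the parental line and 15.31, 15.28 and 15.46 in the resistant line. These values overlap, and the difference was -0.03 ± 0.11 (adjusted p = 0.905). It depended on the processing, since alternative processing and omission of single arrays gave ERBB2 differences from -0.27 to 0.04. The remaining marker, CDH1, stayed below the filter on dim probes, and SKBR3 is known to lack this cadherin. Among the 13, 1 was higher and 2 were lower in the resistant line (23.1% called against 21.3% of all genes, a share near the background). KRT8, a keratin of simple epithelium, was 1.45-fold higher. PGAP3, a neighbour of ERBB2 in its amplicon, and ELF3, an epithelial transcription factor, were lower (-0.44 ± 0.10 and -0.42 ± 0.09). With median scaling 1 was higher and 6 were lower (53.8% called against 21.6% of all genes). Fitting only the groups compared gave 1 higher and 5 lower (46.2% against 26.8%). Of 18 leukocyte markers 6 were tested, with summed normalised signals of 3012 to 3326 in the parental and 2017 to 2395 in the resistant arrays, and PTPRC, CD3D and CD3E stayed below the filter. Of 14 fibroblast markers 6 were tested, with sums of 20822 to 21848 and 18384 to 20767, and COL3A1, PDGFRB and FAP stayed below it. Of 13 endothelial markers 9 were tested, with sums of 1168 to 1272 in the parental and 1362 to 1388 in the resistant arrays. The part of these sums in the results was not tested.

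Under 1 µM lapatinib 2667 genes differed between the lines, or 21.3% of those tested. In the resistant line 1169 genes (9.32%) were higher and 1498 (11.9%) lower. At least 2-fold differences were found for 86 higher genes (0.685%) and 113 lower genes (0.901%). The median absolute log2 difference over all tested genes was 0.16. The 3 arrays of one line lay beyond the 3 of the other for 4880 genes, 38.9% of those tested. The split into higher and lower depends on the scaling. When each array was scaled by its median instead, 526 genes were higher among 2709 called (19.4% instead of 43.8%), and the median over all genes moved from -0.01 to -0.10.

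The 3 largest differences between the lines were those of 3 related genes of the X chromosome. PAGE2, PAGE2B and PAGE5 code for cancer-testis antigens, proteins made in testis and in some tumours but in few other adult tissues. The log2 signals of PAGE2 were 8.37, 7.32 and 6.95 in the parental line and 12.95, 13.02 and 13.07 in the resistant line. PAGE2B gave 8.01, 7.03 and 6.95 against 12.61, 12.71 and 12.86, and PAGE5 gave 8.63, 7.24 and 7.43 against 12.87, 12.91 and 13.15. In each of the 3 genes parental replicate 1 was the brightest parental array, yet it stayed far below every resistant array. The differences were 5.47 ± 0.23 for PAGE2 (44.3-fold, adjusted p = 2.73e-16), 5.40 ± 0.21 for PAGE2B (42.2-fold) and 5.21 ± 0.22 for PAGE5 (37.0-fold). A further PAGE5 probe gave 5.17, while another, above background on 3 of the 6 arrays, gave 0.16. In RNA of a whole culture, fewer cells that express a gene and less RNA per cell cannot be told apart.

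The 3 genes are close relatives, so their probes may in part read each other's transcripts, and they are best taken as one signal. Their promoters are shown because the genes differ together between the lines. Each line holds the 250 bases before the RefSeq transcription start in GRCh38.p14, written 5′ to 3′ on the plus strand, with the longest run that all 3 share in capitals (20 bases).
PAGE2 at chrX:55088768-55089017: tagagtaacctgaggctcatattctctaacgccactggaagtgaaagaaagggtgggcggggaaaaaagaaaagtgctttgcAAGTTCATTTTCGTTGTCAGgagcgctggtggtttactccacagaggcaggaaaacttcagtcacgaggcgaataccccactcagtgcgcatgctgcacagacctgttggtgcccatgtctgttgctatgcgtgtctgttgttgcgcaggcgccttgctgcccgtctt
PAGE2B at chrX:55074780-55075029: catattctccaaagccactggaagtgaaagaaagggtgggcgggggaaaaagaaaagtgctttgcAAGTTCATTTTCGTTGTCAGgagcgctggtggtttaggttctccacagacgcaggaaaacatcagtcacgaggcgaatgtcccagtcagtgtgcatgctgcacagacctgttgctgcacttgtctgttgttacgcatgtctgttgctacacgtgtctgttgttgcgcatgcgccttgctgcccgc
PAGE5 at chrX:55220096-55220345: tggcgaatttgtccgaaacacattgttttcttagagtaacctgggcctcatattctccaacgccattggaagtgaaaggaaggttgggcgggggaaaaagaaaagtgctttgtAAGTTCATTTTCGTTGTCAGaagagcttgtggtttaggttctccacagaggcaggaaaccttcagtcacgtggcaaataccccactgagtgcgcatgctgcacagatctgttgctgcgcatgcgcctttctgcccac
In global alignments with end gaps left out, PAGE2 and PAGE2B were identical at 85.0% of aligned positions, PAGE2 and PAGE5 at 76.8%, and PAGE2B and PAGE5 at 72.4%.

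Other cancer-testis genes moved less and not all one way. The list of 23 tested members includes PAGE2, PAGE2B and PAGE5, taken above as one signal. Of the 23, 9 were higher and 1 was lower in the resistant line, or 43.5% called against 21.3% of all genes. The median difference was 0.23. MAGEA1, a melanoma antigen of the X chromosome, was the lower one. Its log2 signals were 10.38, 10.32 and 10.38 in the parental line and 8.72, 9.06 and 8.81 in the resistant line (-1.50 ± 0.12), and its other probe gave -0.99. SSX2, MAGEB2 and SSX4, named after their values were seen, were below background on all 3 parental arrays. Against the background level they were at least 1.75-fold, 1.61-fold and 1.38-fold higher in the resistant line. With median scaling 8 members remained called higher, with a list median of 0.08.

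**Figure D1:**
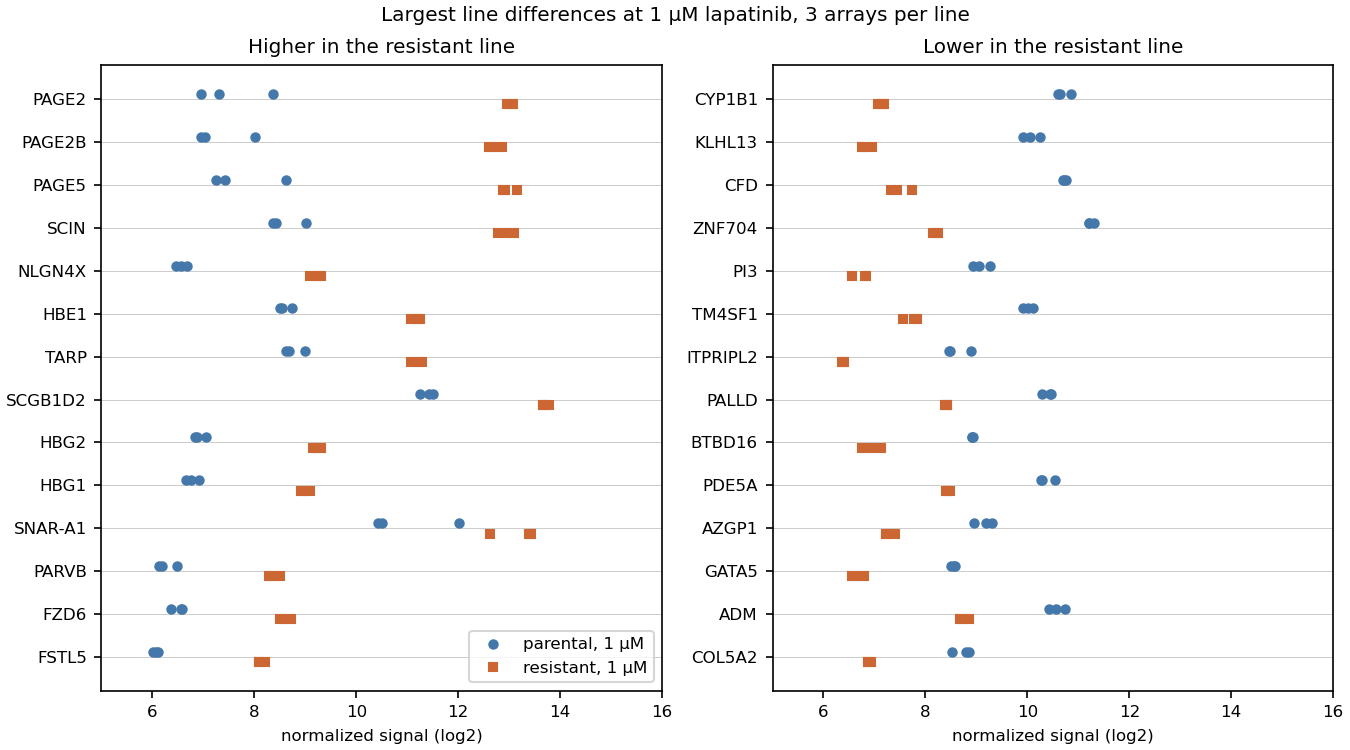
Log2 normalised signal (x axis) of the 14 genes with the largest positive and the 14 with the largest negative line difference at 1 µM lapatinib, 1 point per array, circles for the parental and squares for the resistant line. The 28 genes were chosen among those whose arrays do not overlap between the lines, so their separation is a condition of the choice. They run from PAGE2 (6.95 to 8.37 against 12.95 to 13.07) to COL5A2 (8.52 to 8.85 against 6.86 to 6.93).

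SCIN followed them in size. It codes for scinderin, which severs actin filaments in a calcium-dependent way. Its log2 signals were 9.02, 8.36 and 8.42 in the parental line and 12.79, 13.09 and 12.96 in the resistant line (4.35 ± 0.13, 20.3-fold, adjusted p = 2.61e-19). NLGN4X, an X-linked neuroligin of synaptic adhesion, rose from 6.57, 6.45 and 6.69 in the parental arrays to 9.22, 9.10 and 9.31 in the resistant arrays (2.64 ± 0.11). Its other 3 probes gave 1.27, 0.43 and 0.18, and the parental level was above background on 2 of 3 arrays. TARP, a transcript of the T cell receptor gamma locus that is also made in prostate and breast cancer cells, was 5.35-fold higher, with 8.99, 8.68 and 8.62 against 11.29, 11.07 and 11.20. SCGB1D2, a small secretoglobin of breast epithelium, was bright in both lines, with 11.51, 11.43 and 11.25 against 13.67, 13.78 and 13.67 (2.31 ± 0.18).

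Embryonic and fetal globin genes formed a second high group. HBE1, which codes for epsilon globin, had log2 signals of 8.73, 8.54 and 8.50 in the parental line and 11.25, 11.17 and 11.08 in the resistant line (2.58 ± 0.11, 5.97-fold). The gamma globin genes HBG2 and HBG1 differed by 2.31 ± 0.13 and 2.22 ± 0.14, and since they are near-identical copies their probes cannot be taken as independent. Myoglobin, MB, was 1.32-fold higher, with an adjusted p above the threshold without parental replicate 3 (0.0535), without resistant replicate 3 (0.0514) and with median scaling (0.146). Of 8 tested members of the globin list these 4 were higher and 0 lower (50% called against 21.3% of all genes). HBB, the adult beta globin gene of the same cluster, was below background on all 6 arrays.

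Of the further genes higher in the resistant line, FZD6, PARVB and FSTL5 were dim in the parental line. FZD6, a Wnt receptor, differed by 2.10 ± 0.14 and PARVB, a focal adhesion protein, by 2.14 ± 0.16, from parental levels that were above background on 2 and 1 of 3 arrays. The other 2 PARVB probes gave -0.26 and 0.15. FSTL5, a secreted follistatin-like protein, was below background on all 3 parental arrays and at least 3.18-fold higher in the resistant line. SNAR-A1, a short untranslated transcript of a multicopy family whose members are almost alike, gave 12.01, 10.42 and 10.50 against 13.43, 13.39 and 12.62. Its spread was the widest of the 28 genes (2.17 ± 0.47, adjusted p = 0.00109).

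The gene most reduced in the resistant line was CYP1B1, a cytochrome P450 that oxidises oestrogens and polycyclic hydrocarbons and is a target of the aryl hydrocarbon receptor. Its log2 signals were 10.61, 10.64 and 10.86 in the parental line and 7.08, 7.17 and 7.18 in the resistant line (-3.56 ± 0.15, 11.8-fold, adjusted p = 2.73e-16). KLHL13, a substrate adaptor of the CUL3 ubiquitin ligase, gave 9.91, 10.05 and 10.25 against 6.94, 6.77 and 6.75 (-3.25 ± 0.13), and -2.11 at a second probe. CFD, the complement protease factor D, gave 10.69, 10.76 and 10.72 against 7.73, 7.45 and 7.32 (-3.23 ± 0.14). ZNF704, a zinc finger protein, gave 11.20, 11.21 and 11.31 against 8.25, 8.20 and 8.15 (-3.04 ± 0.10), and -1.22 at a second probe. In each of these 4 genes every resistant array lay below every parental one, which the choice of the largest differences required.

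Secreted and surface proteins followed. PI3, the protease inhibitor elafin, was 5.12-fold lower in the resistant line, and TM4SF1, a membrane protein of the tetraspanin-like family, was 4.87-fold lower. AZGP1, a secreted glycoprotein of luminal epithelium, was 3.65-fold lower and the collagen chain COL5A2 was 3.57-fold lower. Its partner chain COL5A1, taken from the fibroblast list, was also lower, with 8.67, 8.78 and 8.95 against 7.62, 7.74 and 7.58 (-1.16 ± 0.12). ADM, which codes for the hypoxia-inducible peptide adrenomedullin, gave 10.43, 10.57 and 10.75 against 8.71, 8.67 and 8.86 (-1.84 ± 0.10). The actin-binding protein PALLD, the cyclic GMP phosphodiesterase PDE5A, the transcription factor GATA5 and BTBD16 were 3.95-fold, 3.82-fold, 3.63-fold and 3.95-fold lower, while the 4 other PDE5A probes, at or near background, gave -0.17 to -0.12. ITPRIPL2 was below background on all 3 resistant arrays and at least 4.41-fold lower.

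The drug's own targets did not pass the threshold at their brightest probes. Beside ERBB2, given above, EGFR had log2 signals of 9.63, 9.58 and 9.79 against 9.68, 9.65 and 9.77 (0.03 ± 0.10, adjusted p = 0.864). A second EGFR probe above background on all 6 arrays gave a higher value in the resistant line (0.59 ± 0.12), so the probes of this gene disagree. ERBB3, the kinase-impaired partner of ERBB2, differed by -0.23 ± 0.10 without passing the threshold (adjusted p = 0.0899), and ERBB4 by 0.11 ± 0.12. Of 10 tested receptors and ligands of the family 1 was higher and 1 lower (20% called against 21.3% of all genes, a share near the background). The higher one was the ligand EGF, with 7.06, 6.81 and 6.99 against 7.69, 7.48 and 7.87 (0.73 ± 0.12). The lower one was the ligand NRG2 (-0.49 ± 0.14), whose adjusted p was 0.0714 without resistant replicate 3.

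Other growth factor receptors and adaptors gave 1 higher and 4 lower genes of 16 tested (31.2% called against 21.3% of all genes). FGFR3, a fibroblast growth factor receptor, was lower in the resistant line, with 10.71, 10.53 and 10.43 against 9.60, 9.61 and 9.56 (-0.97 ± 0.10). The 4 lower genes were 2 without parental replicate 1 or without resistant replicate 2. PIK3R1, the regulatory subunit of PI3K, was also lower (-0.80 ± 0.14), although its other 4 probes, at or near background, gave -0.26 to 0.20. The docking protein GAB2, which links receptors to PI3K and SHP2, was higher (0.86 ± 0.14). MET, the receptor of hepatocyte growth factor, was 1.38-fold lower (adjusted p = 0.0136), but its adjusted p was 0.106 without parental replicate 1 and 0.129 without resistant replicate 2. IGF1R and INSR differed by 0.06 ± 0.14 and -0.27 ± 0.14 close to background, and AXL was below the filter.

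The tested targets and feedback inhibitors of the ERBB-MAPK route that passed the threshold were lower in the resistant line. DUSP6, EPHA4, ETV5 and FOSL1 of this list stayed below the filter on dim probes and were not tested. Of 21 tested members 0 were higher and 8 lower (38.1% called against 21.3% of all genes), with a median of -0.27 against -0.01 over all genes. SPRED1, an inhibitor of RAS-RAF signalling, had log2 signals of 10.27, 10.24 and 10.14 in the parental line and 8.80, 8.78 and 8.68 in the resistant line (-1.46 ± 0.10, 2.76-fold). JUN, an immediate early transcription factor, gave 9.43, 8.93 and 8.93 against 8.04, 8.09 and 8.20 (-0.99 ± 0.16). ERRFI1, a feedback inhibitor that binds EGFR and ERBB2, gave 9.29, 9.49 and 9.38 against 8.89, 9.03 and 8.86 (-0.46 ± 0.10). KLF10 differed by -0.52 ± 0.12, but the mean of its probes gave -0.13 (adjusted p = 0.366). PHLDA1 is counted among the 8, but it was below background on all 6 arrays, so that its difference has no measured level behind it. Without parental replicate 1 or without resistant replicate 1 the count of lower members was 5, and in the former 1 member was higher. With array weights, and when only the groups compared were fitted, 1 member was higher and 10 were lower.

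FOXO targets, which AKT activity keeps low, gave 3 higher and 9 lower genes of 27 tested (44.4% called), with a median of -0.14. PDK4, an inhibitor of the pyruvate dehydrogenase complex, gave 7.86, 7.90 and 8.13 against 6.94, 6.76 and 6.69 (-1.17 ± 0.13). FBXO32, a ubiquitin ligase subunit, was bright in both lines, with 13.33, 13.44 and 13.33 against 12.65, 12.78 and 12.67 (-0.66 ± 0.09). Its other probes gave -0.24 and -0.31. GADD45B, a stress-induced growth arrest protein, was also lower (-0.92 ± 0.13). CITED2, a transcriptional coregulator, was higher (0.64 ± 0.11), as was TXNIP, which inhibits thioredoxin and glucose uptake (0.49 ± 0.12), although TXNIP passed the threshold only without median scaling (0.30, adjusted p = 0.142). The FOXO list thus held members on both sides.

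Of 46 tested mitosis genes 0 were higher and 5 lower (10.9% called against 21.3% of all genes), with a median of -0.05. With median scaling 10 mitosis genes were lower (21.7% called against 21.6% of all genes). KIF4A, a chromosome-associated kinesin, gave 7.44, 7.28 and 7.58 in the parental line and 6.53, 6.58 and 6.72 in the resistant line (-0.82 ± 0.12). CDC20, an activator of the anaphase-promoting complex, gave 11.71, 11.87 and 11.74 against 11.18, 11.31 and 11.25 (-0.52 ± 0.10). PTTG1 and KIF18A were lower as well, but their adjusted p was 0.0817 and 0.0891 without resistant replicate 3 and 0.052 and 0.194 without parental replicate 2. Without parental replicate 2 or resistant replicate 3 the count of lower mitosis genes was 2. MKI67, near background, differed by 0.18 ± 0.13 (adjusted p = 0.398). Of 41 tested G1/S and replication genes 3 were higher and 3 lower (14.6% called), with 1 lower without parental replicate 2, and with median scaling 2 were higher and 7 lower (22.0% called). The flap endonuclease FEN1 (0.65 ± 0.10) and the thymidine kinase TK1 (0.53 ± 0.10) were higher, and UHRF1, which maintains DNA methylation, was lower (-0.60 ± 0.11). In 0.1 µM lapatinib 14 mitosis genes and 16 G1/S genes were higher in the resistant line and 0 were lower in either list, against 9.77% of all genes higher and 10.4% lower at that dose. The difference between the doses of 0.1 and 1 µM was not tested.

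Among cyclin-dependent kinases and their inhibitors 0 of 12 tested genes were higher and 3 lower (25.0% called against 21.3% of all genes, a share near the background). CDK6, a kinase that drives G1, gave 7.64, 8.002 and 8.06 in the parental line and was below background on all 3 resistant arrays, at least 2.68-fold lower. The inhibitors CDKN2B and CDKN1A were lower too, by 2.28-fold (8.94, 8.99 and 9.14 against 7.74, 7.77 and 7.99) and 1.54-fold (8.41, 8.50 and 8.44 against 7.67, 7.96 and 7.86). CCND1, which codes for cyclin D1, differed by 0.25 ± 0.09 without passing the threshold (adjusted p = 0.0604).

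**Figure D2:**
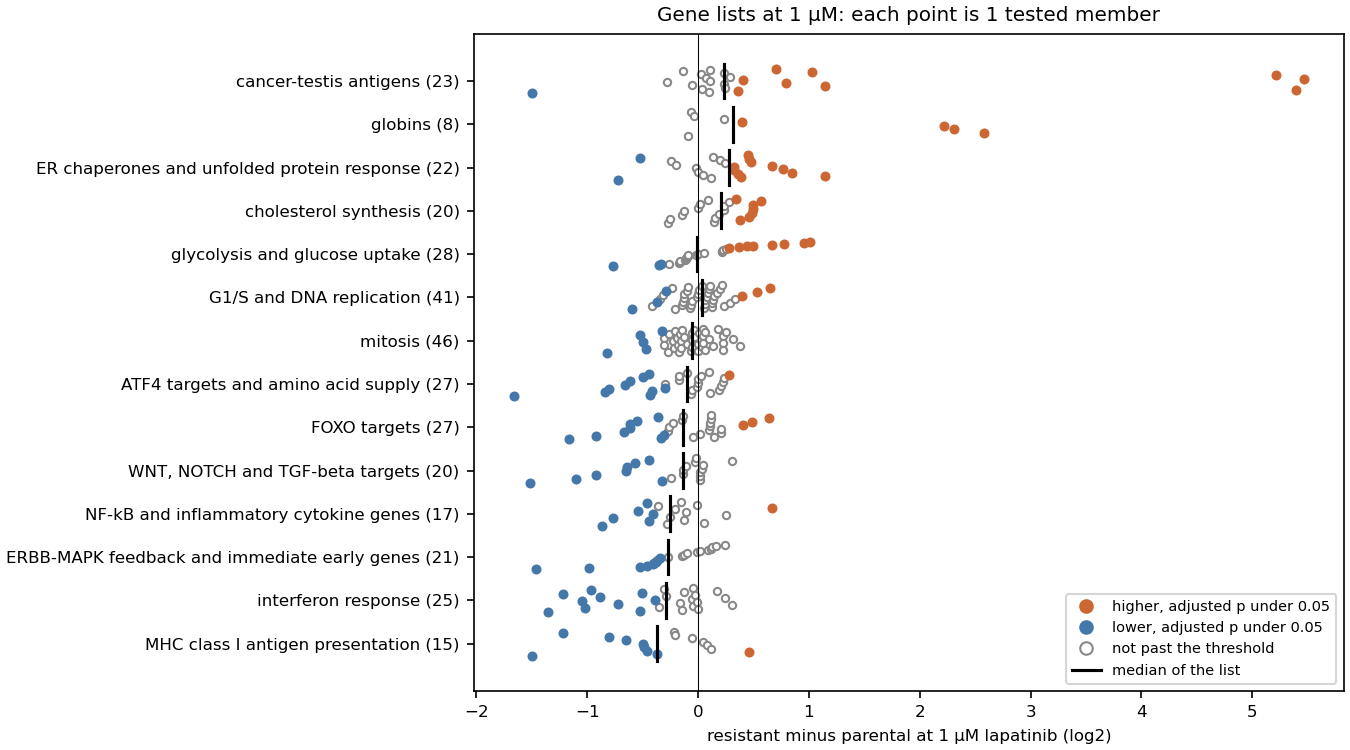
Resistant minus parental difference at 1 µM lapatinib (x axis, log2) for every tested member of 14 gene lists, with the number tested in brackets. Filled points passed an adjusted p of 0.05 (orange higher, blue lower), open points did not, and the bar is the list's median, which runs from 0.32 for globins to -0.37 for MHC class I antigen presentation.

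In MHC class I antigen presentation the immunoproteasome cuts peptides, the TAP transporter carries them into the endoplasmic reticulum and class I heavy chains bring them to the surface. Of 15 tested members 1 was higher and 8 were lower in the resistant line (60.0% called against 21.3% of all genes), with a median of -0.37. TAP1 had log2 signals of 11.80, 11.74 and 11.76 in the parental line and 10.24, 10.15 and 10.41 in the resistant line (-1.50 ± 0.09, 2.83-fold, adjusted p = 1.52e-12). Its partner TAP2 gave 8.34, 8.31 and 8.23 against 7.38, 7.38 and 7.72 (-0.80 ± 0.14). PSMB10, an immunoproteasome subunit, gave 12.37, 12.49 and 12.47 against 11.30, 11.10 and 11.26 (-1.22 ± 0.12). HLA-B was below background on all 3 resistant arrays and at least 1.43-fold lower, but its adjusted p was 0.115 without parental replicate 2. The count of lower members was 5 without parental replicate 1 and 4 without parental replicate 2, and the higher member was lost in each of the 6 omissions.

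Of 25 tested genes of the interferon response 0 were higher and 10 lower (40.0% called), with a median of -0.29. GBP1, an interferon-induced GTPase, gave 8.03, 8.50 and 8.33 in the parental line and 6.87, 6.85 and 7.09 in the resistant line (-1.35 ± 0.14), with -0.89 at a second probe. The transcription factor IRF1 gave 9.88, 10.07 and 9.94 against 8.77, 8.95 and 8.53 (-1.22 ± 0.10), and IRF7 gave 7.80, 7.67 and 7.52 against 6.71, 6.58 and 6.63 (-1.02 ± 0.12). EIF2AK2, the kinase PKR that senses double-stranded RNA, was 2.07-fold lower. All 3 arrays of the resistant line lay below the parental ones in each of these 4 genes.

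Promoters of TAP1 and GBP1 are shown because many genes of both lists are known to answer to interferon through a repeated GAAA motif. The motif, 2 copies of GAAA with 2 bases between them, was searched on both strands in the 250 bases before the start of each promoter in the RefSeq table of GRCh38.p14, and it was found in 1061 of 35116 promoters (3.02%). It was present for 7 of 12 tested MHC class I genes with a promoter in the table, 4 of the 7 that were lower and 3 of the 4 that did not pass the threshold. In the interferon list it was present for 14 of 21, 4 of the 8 lower genes and 10 of the 13 others. Both promoters are written 5′ to 3′ on the minus strand, with matches in capitals, and TAP1 holds 2 that overlap.
TAP1 at chr6:32853705-32853954: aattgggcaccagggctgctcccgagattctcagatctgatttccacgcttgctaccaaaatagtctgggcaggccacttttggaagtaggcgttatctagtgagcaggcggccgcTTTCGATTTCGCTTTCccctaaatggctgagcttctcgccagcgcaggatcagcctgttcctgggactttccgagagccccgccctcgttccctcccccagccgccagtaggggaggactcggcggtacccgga
GBP1 at chr1:89065209-89065458: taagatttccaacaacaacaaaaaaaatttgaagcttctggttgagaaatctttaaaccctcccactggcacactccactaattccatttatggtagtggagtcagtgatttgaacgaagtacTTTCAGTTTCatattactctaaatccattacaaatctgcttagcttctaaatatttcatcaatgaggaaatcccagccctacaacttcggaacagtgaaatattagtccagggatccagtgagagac

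Among NF-kB targets and inflammatory cytokines 1 of 17 tested genes was higher and 6 were lower (41.2% called), with a median of -0.25, and without parental replicate 1 the count of lower genes was 4. CCL5, a chemokine, gave 7.997, 8.45 and 8.38 against 7.49, 7.24 and 7.51 (-0.86 ± 0.12). NFKBIA, the inhibitor that NF-kB itself induces, gave 13.14, 13.02 and 13.04 against 12.34, 12.19 and 12.37 (-0.77 ± 0.09). CXCL10, an interferon-induced chemokine, was below background in the resistant line and at least 1.30-fold lower. LCN2, an iron-binding defence protein of epithelium, was the higher one (0.67 ± 0.13). Targets of WNT, NOTCH and TGF-beta signalling gave 0 higher and 8 lower genes of 20 (40.0% called), with a median of -0.14. Among them were HES2 (-1.51 ± 0.14), HEY1 (-0.92 ± 0.12), which is a NOTCH target and had 0.08 at a dim second probe, and PMEPA1, a target and inhibitor of TGF-beta signalling (-1.11 ± 0.10).

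Chaperones and folding factors of the endoplasmic reticulum are induced by the unfolded protein response. Of 22 tested members 11 were higher and 2 lower in the resistant line (59.1% called against 21.3% of all genes), with a median of 0.28. HSPA5, the chaperone BiP, had log2 signals of 8.91, 9.04 and 9.14 in the parental line and 9.88, 9.74 and 9.78 in the resistant line (0.77 ± 0.10, 1.70-fold). HYOU1, a chaperone of the same compartment, gave 8.99, 8.76 and 8.77 against 9.66, 9.74 and 9.67 (0.85 ± 0.10), and SEC24D, a coat protein of transport vesicles, gave 7.76, 8.04 and 8.04 against 8.99, 9.29 and 8.998 (1.14 ± 0.12). ERO1A, the oxidase that forms disulfide bonds, was lower (-0.72 ± 0.11). The count depends on the scaling and on single arrays. With median scaling 4 members were higher and 3 lower, with a list median of 0.14, and 5, 7, 7 and 6 were higher without parental replicate 2, parental replicate 3, resistant replicate 2 and resistant replicate 3.

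The HSPA5 promoter is shown because it carries the element through which this response is known to act. The element, CCAAT and CCACG with 9 bases between them, was searched on both strands in the same windows and found in 26 of 35116 promoters (0.074%). It was present for 7 of 20 tested genes of the list with a promoter in the table: 4 of the 10 that were higher, 0 of the 2 that were lower and 3 of the 8 that did not pass the threshold. The HSPA5 promoter is written 5′ to 3′ on the minus strand, with the element in capitals.
HSPA5 at chr9:125241344-125241593: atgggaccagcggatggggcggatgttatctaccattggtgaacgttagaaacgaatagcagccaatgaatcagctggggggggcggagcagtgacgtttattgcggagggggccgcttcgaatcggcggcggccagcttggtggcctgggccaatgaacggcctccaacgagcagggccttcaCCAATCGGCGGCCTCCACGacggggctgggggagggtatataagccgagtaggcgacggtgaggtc

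Targets of ATF4, the transcription factor of the amino acid and integrated stress response, gave 1 higher and 10 lower genes of 27 tested (40.7% called), with a median of -0.10. ATF3 had log2 signals of 9.54, 9.62 and 9.38 in the parental line and 7.86, 7.74 and 7.94 in the resistant line (-1.66 ± 0.11, 3.17-fold). CBS, an enzyme of cysteine synthesis (-0.84 ± 0.14), DDIT4, an inhibitor of mTORC1 (-0.80 ± 0.10), and GDF15, a stress-induced cytokine (-0.66 ± 0.15), were lower as well. DDIT3, which codes for the stress factor CHOP, was 1.34-fold lower, with an adjusted p of 0.0531 without resistant replicate 1.

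Genes of sugar metabolism were split. Of 28 tested genes of glycolysis and glucose uptake 8 were higher and 3 lower (39.3% called against 21.3% of all genes), with a median of -0.01. HK2, the hexokinase that traps glucose in the cell, gave 10.15, 10.002 and 10.52 against 11.21, 11.30 and 11.21 (1.01 ± 0.15). PGD, of the pentose phosphate pathway, gave 10.07, 9.99 and 9.87 against 10.79, 11.03 and 10.97 (0.95 ± 0.12), and LDHB, a lactate dehydrogenase subunit, was 1.72-fold higher. PFKP, a phosphofructokinase, was 1.70-fold lower. With median scaling the list turned to 4 higher and 6 lower, and without parental replicate 3 it held 5 higher. Of 20 hypoxia-inducible genes 6 were higher, led by NDRG1 (1.23 ± 0.12), and 4 were lower, led by ADM (50% called). In cholesterol synthesis 7 of 20 tested genes were higher and 0 lower (35% called), with a median of 0.21. IDI1, an isomerase of the pathway, gave 8.20, 8.12 and 8.52 against 8.85, 8.71 and 8.99 (0.57 ± 0.12). With median scaling 3 members of the cholesterol list were higher and 1 lower, and without resistant replicate 2 also 3 were higher.

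Detoxifying enzymes and transporters lay on both sides. Of 21 tested genes of xenobiotic metabolism 4 were higher and 3 lower (33.3% called against 21.3% of all genes). Of 19 NRF2 targets 3 were higher and 5 lower (42.1% called). Without resistant replicate 3 there were 5 lower genes of xenobiotic metabolism, and without parental replicate 1, parental replicate 3, resistant replicate 2 or resistant replicate 3 there was 1 higher NRF2 target. ALDH3B2, an aldehyde dehydrogenase, gave 9.41, 9.60 and 9.35 in the parental line and 11.21, 11.15 and 11.10 in the resistant line (1.70 ± 0.11), and 1.33 at a second bright probe. The glutathione transferase GSTA4 was 2.45-fold higher and CYP4B1, a cytochrome P450, 1.94-fold higher. The glutathione peroxidase GPX2 gave 10.51, 10.30 and 10.27 against 9.23, 9.11 and 9.21 (-1.18 ± 0.14), and the aldo-keto reductase AKR1B10 was 1.92-fold lower. Of 10 tested transporters of the ABC family 3 were higher and 2 lower (50% called). ABCC3 and ABCC4, which export organic anions, were lower (-1.20 ± 0.11 and -0.89 ± 0.14), and ABCA12 and ABCC11 were higher (0.93 ± 0.10 and 0.70 ± 0.15). ABCB1, the multidrug transporter P-glycoprotein, was below background on all 6 arrays, and ABCG2 stayed below the filter.

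Of 24 luminal markers 5 were higher and 2 lower, or 4 and 6 with median scaling, and of 28 genes of adhesion and the cytoskeleton 5 were higher and 7 lower. Over all genes 9.32% were higher and 11.9% lower. TFF3, a secreted peptide of luminal epithelium, gave 7.28, 7.36 and 7.03 against 8.15, 8.003 and 8.55 (1.01 ± 0.19), and the prolactin-induced protein PIP was 1.62-fold lower. The prolactin receptor PRLR was higher (7.34, 7.53 and 7.71 against 8.51, 8.40 and 8.38, 0.90 ± 0.11), while SOCS2, a target of the same axis, was lower (9.58, 9.74 and 9.83 against 8.83, 8.85 and 8.71, -0.92 ± 0.12). A second PRLR probe gave 0.32 and a second SOCS2 probe -0.53. The matrix protein TGFBI was 2.58-fold higher and the matrix protein THBS1 2.38-fold lower. The receptor CSF1R, taken from the leukocyte list, was bright in both lines and 2.35-fold lower in the resistant one (10.66, 10.65 and 10.71 against 9.42, 9.53 and 9.37).

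The same comparison was made under basal conditions and in 0.1 µM lapatinib, with arrays that the 1 µM comparison does not use. Without drug 1944 genes differed (15.5% of those tested) and in 0.1 µM 2528 (20.1%). These counts depend on the processing. Median scaling gave 4174 without drug (33.3%), and fitting only the groups compared gave 1474 in 0.1 µM (11.7%). The overlaps that follow were counted with the processing used throughout, not with these alternatives. Of the 1169 genes higher in the resistant line at 1 µM, 529 were also higher without drug, which is 45.3% of the former and 58.2% of the 909 higher without drug. Of the 1498 lower genes 678 were lower without drug, which is 45.3% of the former and 65.5% of 1035. The large differences were shared. Of the 86 genes at least 2-fold higher at 1 µM 81 were called higher without drug, and of the 113 at least 2-fold lower 108 were called lower. Of the 28 genes with the largest differences 27 were called the same way without drug and in 0.1 µM, and the exception was SNAR-A1, with 0.52 without drug and -0.36 in 0.1 µM. The differences of PAGE2 without drug and in 0.1 µM were 5.51 and 5.69, those of SCIN 4.09 and 4.60, and those of CYP1B1 -3.33 and -2.56. Across genes, which are not independent, the differences at basal and at 1 µM correlated at r = 0.734 (rho = 0.552).

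**Figure D3:**
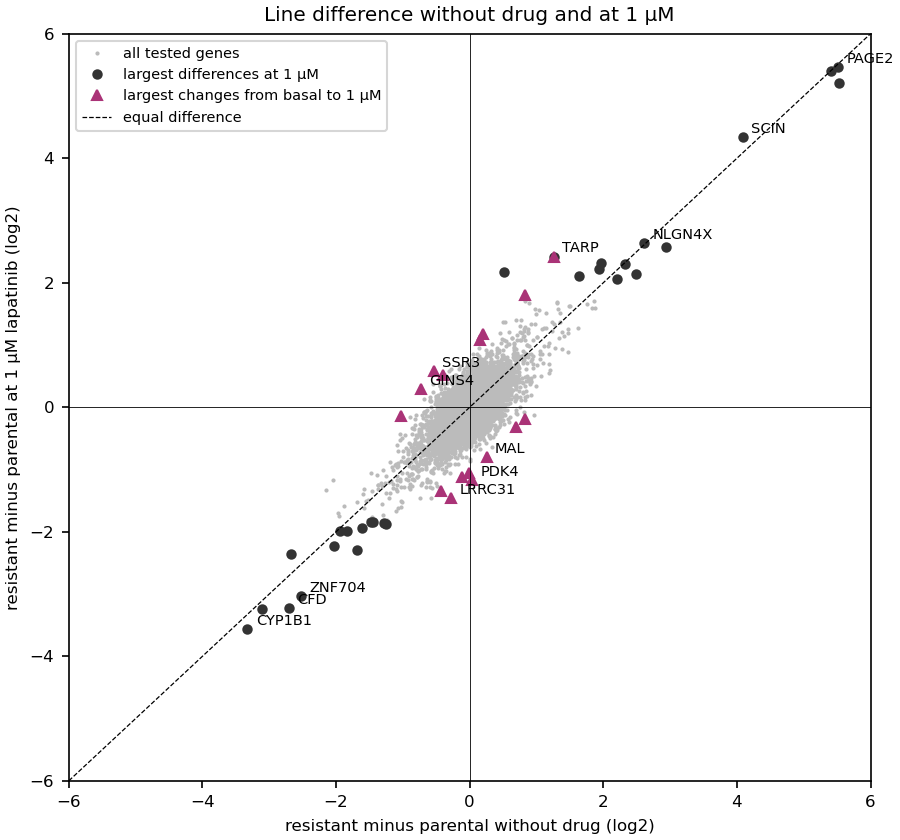
Resistant minus parental difference without drug (x axis, log2) against that at 1 µM lapatinib (y axis, log2), 1 point per tested gene. The genes with the largest differences at 1 µM (circles) lie mostly near the line of equal differences, with SNAR-A1 (0.52 and 2.17) and TARP (1.26 and 2.42) above it, and the triangles mark the 16 genes with the largest changes from basal to 1 µM.

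Whether a line difference under full dose differed from that without drug was tested by the interaction of line and dose. Of 12547 genes 86 passed (0.685%), 39 upwards (0.311%) and 47 downwards (0.375%), and 1558 had an unadjusted p under 0.05. The split into upward and downward depends on the scaling, since with median scaling 66 went upwards and 9 downwards. The group means of the raw signal were 646 (parental) and 481 (resistant) without drug, and 505 and 438 at 1 µM. The part of this brightness in the changes was not tested. Of the 86 genes 41 differed between the lines at 1 µM and not without drug, 20 without drug and not at 1 µM, 16 at both in the same direction and 9 at both in opposite directions. When 1 of the 12 arrays of the test was left out the count fell to between 32 and 67, and 10 of the 12 omissions gave at most 44. With the spread estimated from those 12 arrays alone 275 genes passed, and with array weights 398 passed.

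Steps between doses within a line were not tested, and the means below are descriptive. Several genes with a downward change had a larger step up in the parental line. PDK4 had mean log2 signals of 6.45 ± 0.07 (SD, n = 3) and 7.97 ± 0.14 in the parental line without drug and at 1 µM, and of 6.48 ± 0.28 and 6.80 ± 0.13 in the resistant line. The line difference thus went from 0.03 to -1.17 (change -1.20 ± 0.18, adjusted p = 0.00146). LRRC31 went from 7.12 ± 0.15 to 8.96 ± 0.13 in the parental and from 6.84 ± 0.10 to 7.50 ± 0.17 in the resistant line (change -1.18 ± 0.17). MAL, a membrane protein of apical sorting, went from 9.77 ± 0.07 to 11.62 ± 0.10 and from 10.03 ± 0.05 to 10.82 ± 0.04 (change -1.05 ± 0.14). ABCA1, the cholesterol exporter, went from 6.69 ± 0.24 to 8.41 ± 0.18 and from 6.27 ± 0.03 to 7.07 ± 0.09 (change -0.92 ± 0.18), with an adjusted p of 0.0606, 0.062 and 0.0531 without parental basal replicate 3, parental replicate 2 at 1 µM and resistant replicate 2 at 1 µM. FBXO32 belongs to the same kind, with 11.10 ± 0.03 to 13.37 ± 0.06 and 11.26 ± 0.08 to 12.70 ± 0.07 (change -0.82 ± 0.12), with an adjusted p of 0.0876 with median scaling. In both lines the mean of these genes was thus higher at 1 µM than without drug, and at 1 µM that of the resistant line was the lower one.

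Other downward changes came with a lower level in the resistant line. SPRED1 stayed at 10.22 ± 0.12 and 10.22 ± 0.07 in the parental line and went from 9.63 ± 0.14 to 8.75 ± 0.07 in the resistant line (change -0.88 ± 0.15, adjusted p = 0.00311, and 0.0764 with median scaling). JPH2, a junctional membrane protein, went from 8.03 ± 0.22 to 6.75 ± 0.04 in the resistant line and from 7.20 ± 0.09 to 6.94 ± 0.07 in the parental line. At this probe a difference of 0.82 without drug thus went to -0.18, which did not pass the threshold. The other JPH2 probes, above background on all 18 arrays, gave smaller changes of -0.40 and -0.47. PSMB10 (change -0.72 ± 0.17) and DDIT4 (change -0.59 ± 0.14) stood higher at 1 µM than without drug in the parental line and lower in the resistant line. These 2 changes were close to the threshold (adjusted p = 0.0441 and 0.0481), and with single arrays left out the adjusted p reached 0.123 and 0.135, with 14 and 15 alternatives past 0.05.

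Upward changes included TARP, whose level was 10.30 ± 0.22 without drug and 11.19 ± 0.11 at 1 µM in the resistant line and 9.04 ± 0.10 and 8.77 ± 0.20 in the parental line (change 1.16 ± 0.16, adjusted p = 0.000434). CPS1, the first enzyme of the urea cycle, stood at 12.16 ± 0.10 and 10.92 ± 0.28 in the parental line and at 12.995 ± 0.05 and 12.72 ± 0.06 in the resistant line (change 0.97 ± 0.17). SSR3, a subunit of the translocon-associated complex, was lower in the resistant line without drug (-0.53) and higher at 1 µM (0.58). GSTA3, a glutathione transferase, was below background in the parental line at 1 µM and at least 1.92-fold higher in the resistant line, with little difference without drug (0.20). ANKRD37, a hypoxia-inducible gene, was 2.12-fold higher at 1 µM and differed by 0.16 without drug (change 0.93 ± 0.18), with an adjusted p of 0.0546 without resistant basal replicate 2 and 0.0531 without resistant replicate 2 at 1 µM. In all 5 the resistant arrays at 1 µM lay above the parental ones without overlap.

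**Figure D4:**
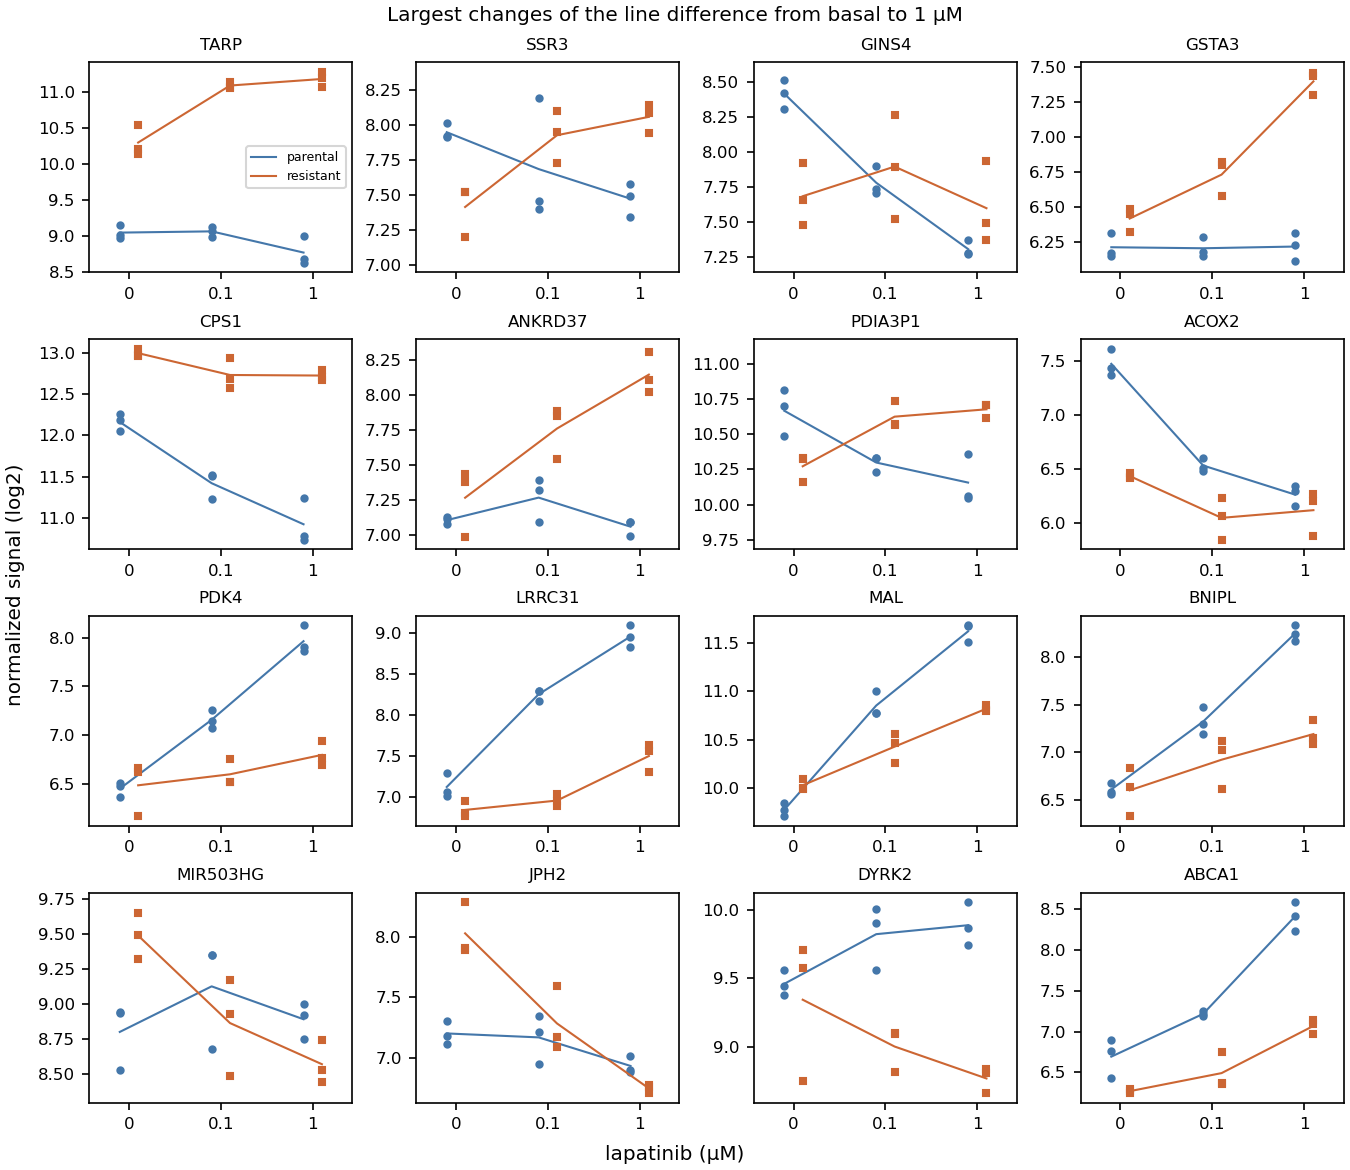
Log2 normalised signal (y axis, scaled per panel) against lapatinib dose (x axis, µM, evenly spaced and not to scale) for the 8 largest upward and the 8 largest downward changes of the line difference, with points for arrays and lines through the means of 3 arrays. The parental line (circles) has the larger step from 0 to 1 µM in PDK4, LRRC31, MAL, BNIPL and ABCA1, and the sign of the line difference at 1 µM is opposite to that at 0 µM in SSR3, GINS4, PDIA3P1, PDK4, MAL, MIR503HG and JPH2. In GINS4, MIR503HG and JPH2 the difference at 1 µM did not pass the threshold, and in PDK4 that at 0 µM was 0.03.

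Most members of the lists above did not pass this test. TAP1 differed by -1.02 without drug and -1.50 at 1 µM (change -0.48, adjusted p = 0.0932), GBP1 by -1.09 and -1.35, and HSPA5 by 1.06 and 0.77 (change -0.29, adjusted p = 0.407). In the MHC class I list 4 genes were lower without drug and 8 at 1 µM, and 1 passed the test of the change. In the ER chaperone list 5 were higher without drug and 11 at 1 µM, and 0 passed it. The FOXO list gave 5 higher and 2 lower genes without drug and 3 higher and 9 lower at 1 µM, with 2 that passed, PDK4 and FBXO32. A p that misses the threshold does not show that the 2 differences are alike. MUC1, a mucin of luminal epithelium, was 0.83 higher in the resistant line without drug and 0.12 higher at 1 µM (adjusted p = 0.601), and its change of -0.71 ± 0.19 had an adjusted p of 0.0956.

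**Figure D5:**
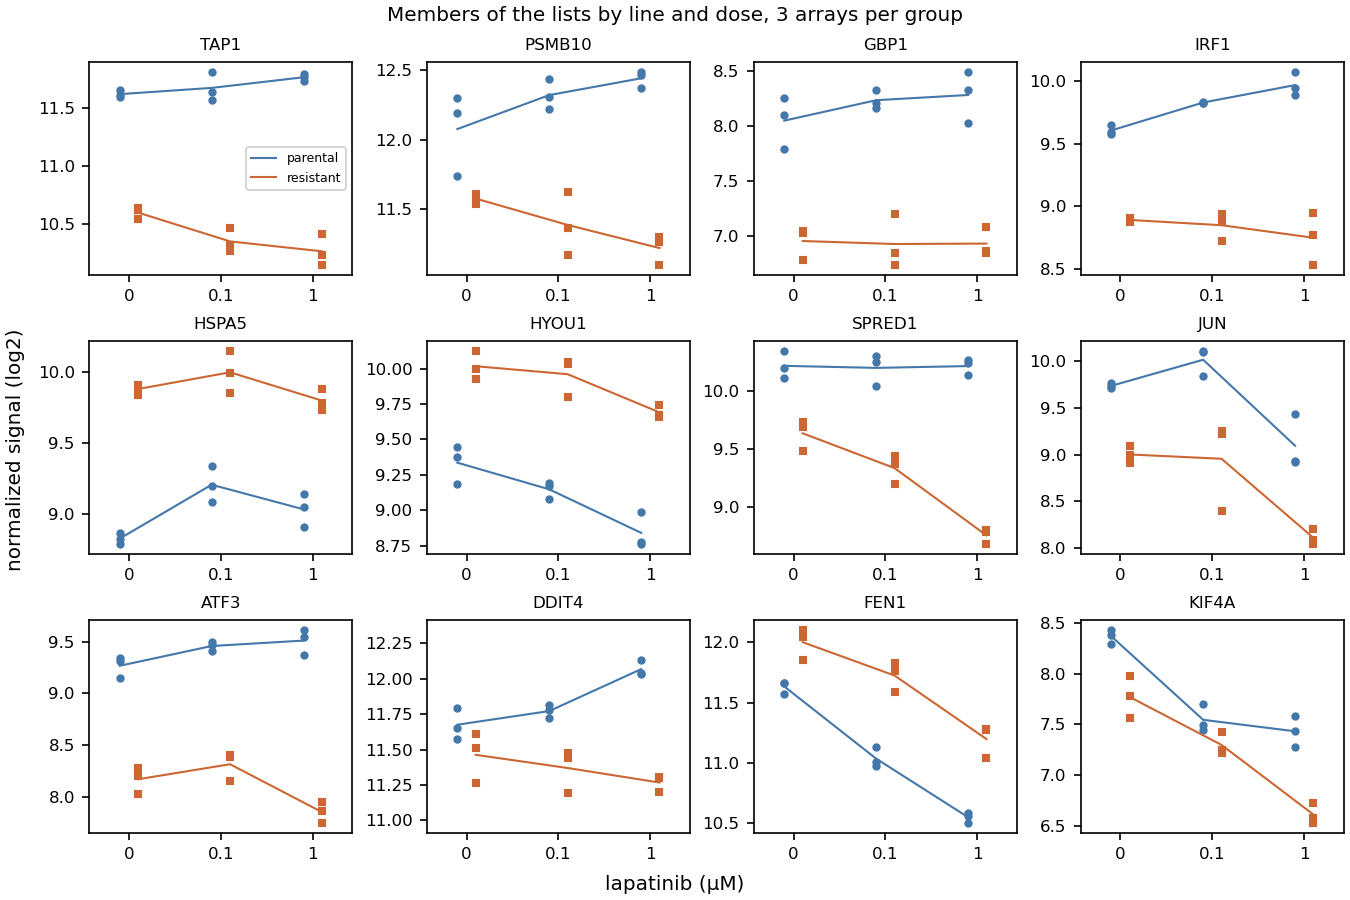
Log2 normalised signal (y axis, scaled per panel) against lapatinib dose (x axis, µM, evenly spaced and not to scale) for 12 members of the lists, with points for the 3 arrays of each group and lines through their means. TAP1, PSMB10, GBP1, IRF1, SPRED1, ATF3 and DDIT4 lie lower in the resistant line (squares) at 1 µM, and HSPA5, HYOU1 and FEN1 lie higher.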

How the data were processed

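Total RNA of 18 samples of the lines SKBR3 parental and SKBR3 resistant was hybridised to Illumina beadchips, 3 arrays in each of 6 groups. The authors deposited a table of probe intensity on a linear scale without normalization and a second intensity table that they had normalised. Per the submitters' processing notes BeadStudio was used, with no version stated. Per the labels' text the array holds 48697 probes, while the deposited table has 48803.

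The table without normalization was used. In R 4.3.3 with limma 3.58.1, background was corrected with normexp (offset 50), arrays were quantile-normalised, and log2 values of the deposited intensity were taken. A probe was kept if it exceeded the background of the array, estimated from the mode of its signals at a share of 0.05, on at least 3 of 18 arrays, which left 22706 probes. Of all probes 28098 had 1 gene symbol in the platform annotation, 13 had several and 20692 had none, and 28059 matched a RefSeq gene ID. Genes were represented by their brightest kept probe, which gave 12547 genes. Other kept probes of a gene are given beside it for part of the genes only, so a single value does not mean that the probes agree. One mean per group was fitted over all 18 arrays with a trended prior, and p-values were adjusted by Benjamini-Hochberg over all genes. The number of arrays limits the precision. The fit was tested on simulated data. Where a gene was below background on every array of one group, the fold is a bound: the mean of the brighter group over the lowest signal above background, or the gene's own where higher, on each array of the dimmer group.

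Named genes were the 14 largest differences in each direction at 1 µM with no overlap between groups, the 8 largest changes in each direction, up to 4 called members of each of 40 lists by size, and a panel of receptors and cell cycle genes. Not all of these genes are described in the text, and some described there, such as SSX2, PHLDA1 and HBB, were named outside these rules. The members and lists were chosen with earlier results of these data known, so the lists' counts are descriptions. The replicate numbers, which the labels give to every group, were checked for pairing: deviations of same-numbered arrays at 1 µM correlated at r = 0.04, -0.02 and 0.03, so the numbers were not used. Alternatives covered the authors' normalised values, background, scaling, filter, probe choice, samples in the fit, array weights, the replicate block and omission of each array. Promoter sequences come from RefSeq (GRCh38.p14) and were searched with Python 3.11.15 and Biopython 1.88.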

Additional observations from a re-analysis of the deposited data

Results flagged for a closer look

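The line difference at 1 µM was set against that under basal conditions in one model, and the 22 genes described in the text and past an adjusted p of 0.05 in that test are given here as the change from basal to 1 µM (limma, log2 ± SE, 3 arrays per group). Upward changes were 1.16 ± 0.16 for TARP (adjusted p = 0.000434), 1.12 ± 0.22 for SSR3, 1.02 ± 0.22 for GINS4, 0.97 ± 0.16 for GSTA3, 0.97 ± 0.17 for CPS1, 0.93 ± 0.18 for ANKRD37, 0.92 ± 0.15 for PDIA3P1 and 0.89 ± 0.17 for ACOX2. In SSR3 and PDIA3P1, a pseudogene whose probe may read its parent gene, the difference turned from -0.53 and -0.40 without drug to 0.58 and 0.52 at 1 µM. GINS4, of the replication helicase, went from -0.73 to 0.29, and the latter difference did not pass the threshold. ACOX2, a peroxisomal oxidase, went from -1.03 to -0.14 and was below background in both lines at 1 µM. CHN1 and BASP1 had changes of 0.82 ± 0.16 and 0.88 ± 0.16 and were lower in the resistant line at both doses, by less at 1 µM (-1.33 and -1.16) than without drug (-2.15 and -2.05).

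Downward changes were -1.20 ± 0.18 for PDK4, -1.18 ± 0.17 for LRRC31, -1.05 ± 0.14 for MAL (adjusted p = 0.000378), -1.05 ± 0.19 for BNIPL, -1.01 ± 0.23 for MIR503HG, -1.01 ± 0.19 for JPH2, -1.004 ± 0.23 for DYRK2, -0.92 ± 0.18 for ABCA1, -0.88 ± 0.15 for SPRED1, -0.82 ± 0.12 for FBXO32, -0.72 ± 0.17 for PSMB10 and -0.59 ± 0.14 for DDIT4. MIR503HG, a non-coding host transcript of a microRNA, went from 0.69 without drug to -0.32 at 1 µM, where its difference did not pass the threshold. DYRK2, a kinase, went from -0.12 to -1.12. The other BNIPL probes gave changes of 0.07 and -0.25. Those of DYRK2 gave -0.19, -0.66 and -0.18, and those of JPH2 gave -0.40 and -0.47. Of these 22 changes 12 kept their call in every alternative run. GINS4 lost it in 7 alternatives, MIR503HG in 15, DYRK2 in 13, PSMB10 in 14, DDIT4 in 15, ABCA1 in 3, ANKRD37 in 2, and BNIPL, SPRED1 and FBXO32 in 1 each.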

How the results depend on the processing

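The naming rules gave 185 genes, not all of which are described in the text. Of the 166 called among them 133 kept their call under every alternative run, and none of the 185 changed sign while called. With median scaling 526 genes were higher at 1 µM instead of 1169, 2023 of 2667 calls were kept, 4174 were called at basal, of which 7.59% were higher instead of 46.8%, and the changes became 66 upwards and 9 downwards. It turned list medians to -0.0368 for ERBB receptors, -0.0896 for G1/S, -0.0631 for oxidative phosphorylation, -0.0457 for lysosome, -0.0577 for luminal markers, -0.0272 for epithelial-mesenchymal transition and -0.0401 for the BCL2 family. The stricter filter turned that of fibroblast markers to -0.0456, and the mean of probes turned heat shock to 0.0474 and hypoxia to 0.0392. Fitting only the groups compared gave 1474 calls at 0.1 µM and 275 changes (118 up, 157 down), array weights gave 398 (171 and 227), and the probe level gave 31 downward changes. Over probes above background the mean signal differed by -135. The cause was not tested. Leaving out single arrays gave 2055 to 2180 calls at 1 µM (917 to 949 higher, 1131 to 1256 lower), 199 to 206 of at least 2-fold, 1428 to 1570 at basal, 2015 to 2533 at 0.1 µM, 32 to 67 changes (16 to 31 up, 15 to 36 down) and mean signal differences of -74.7 to -52.2. List medians changed sign, by more than the spread between replicates, for metallothioneins (-0.0421 to 0.142), hypoxia (-0.0531 to 0.0163), G1/S (-0.00077 to 0.0565) and heat shock (-0.0548 to 0.0419). Within that spread they changed sign for glycolysis (-0.0264 to 0.00598), D cyclins and CDK inhibitors (-0.103 to 0.0139), luminal markers (-0.0059 to 0.0541), epithelial-mesenchymal transition (-0.0123 to 0.041), basal markers (-0.0734 to 0.0081) and fibroblast markers (-0.0084 to 0.0612). The replicate block, although the numbers do not pair the samples, gave 2601 calls at 1 µM, 1880 at basal, 2471 at 0.1 µM and 65 changes. Signal over background limits 111 calls at 1 µM in which 1 line was below background, and 1 in which both were.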

Other observations

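Of 21 tested heat shock genes 4 were higher and 2 lower in the resistant line at 1 µM (28.6% called against 21.3% of all genes). Among them the small heat shock proteins HSPB8 and HSPB1 went opposite ways. HSPB8 had log2 signals of 7.78, 7.79 and 7.94 in the parental line and 8.77, 9.11 and 9.02 in the resistant line (1.13 ± 0.13). HSPB1, a small chaperone that also binds actin, gave 14.85, 14.78 and 14.97 against 14.35, 14.43 and 14.36 (-0.49 ± 0.10). With any 1 of the 6 arrays left out 1 or 2 of the 4 higher genes were called. The lysosome and autophagy list gave 6 higher and 4 lower of 30 (33.3% called). It was led by the protease CTSH (9.40, 9.50 and 9.23 against 10.42, 10.34 and 10.59, 1.08 ± 0.11), with 0.29 at a second CTSH probe. Among 19 epithelial defence and S100 genes 5 were higher, or 3 without parental replicate 3, and 2 lower (36.8% called with all arrays). S100A9, a calcium-binding protein of inflamed epithelium, was bright in both lines and lower in the resistant one, with 13.58, 13.40 and 13.50 against 12.55, 12.75 and 12.64.

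Of 25 tested subunits of the constitutive proteasome and its regulators 5 were higher and 7 lower, against 9.32% of all genes higher and 11.9% lower, and with median scaling 1 was higher and 8 lower. PSMD14 was higher (0.57 ± 0.10) and PSMC3 lower (-0.51 ± 0.11). Leaving out parental replicate 2 left 3 higher and 3 lower, and leaving out resistant replicate 2 left 2 higher. In the prolactin and STAT5 list 1 of 12 was higher and 4 were lower (41.7% called against 21.3% of all genes). In the list of epithelial-mesenchymal transition 1 of 12 was higher and 3 were lower (33.3% called). The lists of oxidative phosphorylation, nucleolar and MYC targets, the BCL2 family, fatty acid synthesis, metallothioneins, complement and basal markers held between 2 and 6 called members each, and in each of them leaving out a single array moved a count by over 1.5 times, so nothing is read from them. Of 5934 kept probes without a gene symbol 433 (7.3%) were called at 1 µM, against 15% of all kept probes.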
